A study of Mus musculus with 1824 samples.

Results

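The p53 target set followed here held 9 genes, *Cdkn1a*, *Mdm2*, *Ccng1*, *Trp53inp1*, *Phlda3*, *Bax*, *Pmaip1*, *Sesn2* and *Zmat3*. The members were chosen by name as established targets of p53 and were found through their Ensembl identifiers, which gave 9 of the 55487 rows of the count table. The rule that picks them uses names and no measured value. All 9 were detected at both embryonic stages, and their levels are given as reads of a gene per 1000000 reads of the library (CPM).

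p53, encoded by *Trp53*, is a transcription factor that is held low by the ubiquitin ligase MDM2 and is stabilised by DNA damage, replication stress and other insults. It binds DNA as a tetramer, and its sites are built from pairs of a short palindromic half-site. Its target genes fall into groups. Cell cycle arrest is represented by *Cdkn1a*, which encodes the cyclin-dependent kinase inhibitor p21, and by *Ccng1*, which encodes cyclin G1. *Mdm2* closes the negative feedback on p53. Cell death is represented by *Bax*, the pore-forming effector of mitochondrial apoptosis, by *Pmaip1*, which encodes the BH3-only protein NOXA, and by *Phlda3*, whose product restrains AKT. *Sesn2* (a stress-inducible inhibitor of mTORC1 signalling, also induced by ATF4), *Trp53inp1* (a p53-inducible nuclear protein with roles in autophagy and death) and *Zmat3* (an RNA-binding zinc finger protein) complete the set. Cells of the gastrulating mouse embryo divide quickly and are known to be sensitive to p53 activation.

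On GRCm38, in the GENCODE M21 annotation, *Cdkn1a* lies on the plus strand at chr17:29090976-29100727, *Mdm2* on the minus strand at chr10:117688875-117710758 and *Ccng1* on the minus strand at chr11:40748552-40755311. *Phlda3* lies at chr1:135766119-135769136 (plus), *Bax* at chr7:45461697-45466898 (minus), *Sesn2* at chr4:132492032-132510501 (minus), *Trp53inp1* at chr4:11156431-11174379 (plus) and *Zmat3* at chr3:32334792-32366014 (minus). Values were counted over exons. Exons of *Cdkn1a* overlap those of *AC167363.2* on the opposite strand, and exons of *Bax* overlap those of *Gm45808* on the same strand, so reads in these stretches could not be assigned to 1 gene with certainty, and the strand setting of the counting is not given in the sources used here.

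The sequences before the transcription start are shown for the members in which p53 half-sites were found, because p53 sites are built from pairs of half-sites. RefSeq promoters of GRCm38.p6, running from 250 bases before to 50 bases after the start, were searched on both strands for the 10-base p53 half-site, and capitals mark the matches. In the first sequence the capitals also take in a match to the core made of CATG, any 6 bases and CATG, which overlaps the half-site nearer the start. *Cdkn1a* is shown at chr17:29090729-29090978 (plus), *Ccng1* at chr11:40755287-40755536 (minus), *Mdm2* at chr10:117710759-117711008 (minus) and *Bax* at chr7:45466899-45467148 (minus). Each runs 5′ to 3′ on the strand of its gene and ends at the base before the start.
Cdkn1a: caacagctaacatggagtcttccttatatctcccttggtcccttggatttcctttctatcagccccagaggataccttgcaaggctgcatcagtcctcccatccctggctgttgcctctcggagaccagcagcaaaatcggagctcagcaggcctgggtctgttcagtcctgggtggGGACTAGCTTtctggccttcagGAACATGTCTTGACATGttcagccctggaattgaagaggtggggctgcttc
Ccng1: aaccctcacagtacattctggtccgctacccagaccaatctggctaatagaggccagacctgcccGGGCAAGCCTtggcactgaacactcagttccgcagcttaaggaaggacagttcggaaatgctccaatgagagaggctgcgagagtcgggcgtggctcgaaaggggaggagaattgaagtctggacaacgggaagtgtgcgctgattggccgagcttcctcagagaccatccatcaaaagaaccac
Mdm2: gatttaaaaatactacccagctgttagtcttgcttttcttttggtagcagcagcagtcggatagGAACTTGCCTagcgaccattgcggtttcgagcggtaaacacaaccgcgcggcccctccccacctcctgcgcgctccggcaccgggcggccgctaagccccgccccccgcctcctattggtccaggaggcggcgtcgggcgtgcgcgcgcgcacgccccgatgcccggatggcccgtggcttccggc
Bax: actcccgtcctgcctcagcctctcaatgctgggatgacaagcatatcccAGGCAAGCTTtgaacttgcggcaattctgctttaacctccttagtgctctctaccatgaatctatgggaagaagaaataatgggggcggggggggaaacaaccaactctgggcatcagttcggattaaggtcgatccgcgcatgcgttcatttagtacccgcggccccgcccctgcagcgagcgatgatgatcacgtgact
Entries were found for 6 members (7 entries, 2 of them for *Cdkn1a*), and 4 of the 7 held a half-site. *Trp53inp1*, *Pmaip1* and *Zmat3* had no entry. Of all 32851 RefSeq promoters of the same 300 bases, 8.36% held a half-site. No member entry held 2 exact half-sites end to end, which were found in 3 of all promoters. In the upstream *Cdkn1a* entry the 10 bases directly after the half-site nearer the start differ from a half-site at their first base alone, and the search did not allow mismatches. The half-sites of the upstream *Cdkn1a* entry began 73 and 51 bases before the start, and those of the other genes lay farther away, at chr11:40755462-40755471 for *Ccng1*, chr10:117710935-117710944 for *Mdm2* and chr7:45467090-45467099 for *Bax*. This core was found in 0.712% of promoters and, among the members, in the upstream *Cdkn1a* entry alone, 48 bases before the start. The second *Cdkn1a* entry and those of *Phlda3* and *Sesn2* held neither motif in this window. A match describes the letters only.

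Transcriptomes came from mouse chimaeras collected at embryonic day 7.5 (E7.5) or 8.5 (E8.5). *Tet* triple-knockout embryonic stem cells (*Tet*-TKO, lacking all TET dioxygenases, 1 line carrying an H2B-tdTomato label driven by a CAG promoter) were injected into C57BL/6J blastocysts, which were then carried by CD1 recipients. The labels give the strain as CD1. Embryos were pooled for the chimaera experiments, cells were stained for KDR and CD41, and live single cells were sorted into plates of 96 wells. The labels describe a GpC methylase reaction before lysis, whereas the methods of the study also describe cells without it and cells profiled for RNA alone, and which wells these were is not in the labels, so treatment cannot be told apart from stage or plate. Each plate can hold host cells, knockout cells or both, and neither the genotype nor the sort gate of a cell is in the labels, so no comparison by genotype was made. E7.5 was represented by 11 plates (numbered embryos 1, 2, 4 and 5, chimera plate 3, and 6 lane plates, named after the lane number in their titles) and E8.5 by 8 plates numbered in sequence. Only the 4 numbered embryos are named animals. E8.5 therefore counts as 1 sample, plates are technical units whose range gives the spread, and no test between stages or between plates was made.

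Of 1824 wells, 1649 held at least 100000 reads, and 1634 of these also passed the limits on mitochondrial and ribosomal reads, with 83 to 94 cells on the E7.5 plates other than lane plate 5 and 76 to 92 cells on the E8.5 plates. Passing cells had a median of 678018 reads. Lane plate 5 stood apart in depth, with 57 passing cells and a median of 224956 reads, against medians from 420157 to 1699478 on the other plates. Cells were clustered without the members and named "-like" from marker genes, which gave 16 named classes and 1 unnamed group of 68 cells.

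*Bax* was the member with the highest level and the widest detection. Its pooled level was 132.4 CPM at E7.5 and 133.2 CPM at E8.5, and it had a read in 99.5% and 99.9% of cells. *Mdm2* (86.6% and 83.2%) and *Ccng1* (80.6% and 76.8%) were also detected in most cells. *Cdkn1a* was found in a minority, 40.4% of E7.5 cells (95% Clopper-Pearson interval 37.3 to 43.6) and 30.04% of E8.5 cells (26.6 to 33.6). After each cell was thinned to 100000 reads, the shares of cells with a *Cdkn1a* read were 34.8% and 24.2%. Intervals cover counting error only, since amplified reads without molecular identifiers are not independent molecules.

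Per kilobase of exon, the order at E7.5 was *Bax* (84.03 CPM per kb), *Pmaip1* (36.3), *Ccng1* (23.2), *Mdm2* (11.4), *Sesn2* (10.6), *Phlda3* (10.2), *Cdkn1a* (7.98), *Trp53inp1* (4.66) and *Zmat3* (2.08). At E8.5 *Bax* stood at 84.5 CPM per kb, *Ccng1* at 29.6, *Phlda3* at 26.3, *Mdm2* at 12.8, *Cdkn1a* at 12.6, *Sesn2* at 11.8, *Pmaip1* at 3.47, *Trp53inp1* at 2.11 and *Zmat3* at 1.55. The SD between plates within a stage, on the log2(CPM + 1) scale, ran from 0.31 for *Mdm2* and *Bax* to 1.33 for *Pmaip1*, and the neighbours from *Mdm2* down to *Cdkn1a* at E7.5, and from *Mdm2* to *Sesn2* at E8.5, lay closer to each other than these SDs.

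Reads of some members were concentrated in few cells. The 82 cells with most reads of a gene, 5% of all, held 63.5% of the *Cdkn1a* reads, 64.9% of the *Trp53inp1* reads and 51.2% of the *Phlda3* reads, against 19.4% of the *Bax* reads. On single plates the 5 highest cells held from 38.3% to 86.3% of the *Cdkn1a* reads. For *Phlda3* the share ran from 26.9% to 83.1%, and for *Trp53inp1* from 40.6% to 100%, the latter on E8.5 plate 5.

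Among the arrest genes, *Cdkn1a* levels were lowest on lane plate 2 (11.7 CPM) and highest on lane plate 5 (131.9 CPM), with a median of 23.7 CPM over the 11 E7.5 plates. The 4 numbered embryos lay between 19.01 and 23.7 CPM (mean 22.2 ± 2.21, SD, n = 4). Lane plate 6 was also high at 92.7 CPM, and the next E7.5 plate, lane plate 1, held 39.4 CPM. At E8.5 the plates ran from 14.7 CPM (plate 3) over a median of 43.3 to 86.9 CPM (plate 6). *Ccng1* was more even, from 55.4 to 118.5 CPM at E7.5 (median 87.9), but its E8.5 plates fell into separate ranges, with 63.99 to 78.3 CPM on the odd-numbered plates and 117.6 to 160.4 CPM on the even-numbered ones.

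*Mdm2* lay between 44.02 and 75.7 CPM on E7.5 plates (median 58.8) and between 53.5 and 64.5 CPM on 7 of the 8 E8.5 plates. Embryos 1 and 2 held 46.5 and 47.4 CPM, against 69.2 and 68.5 CPM in embryos 4 and 5. *Cdkn1a*, *Ccng1*, *Phlda3* and *Trp53inp1* were likewise higher in embryos 4 and 5, whereas *Bax*, *Pmaip1* and *Zmat3* were lower there and *Sesn2* overlapped. E8.5 plate 2 held 110.9 CPM and stood above every other plate.

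Among the death genes, *Bax* ran from 95.1 to 200.2 CPM at E7.5 (median 133.4) and from 104.3 to 172.4 CPM at E8.5 (median 134.6), so that the stages overlapped throughout. *Pmaip1* had the widest range. Its E7.5 plates ran from 7.03 CPM (lane plate 2) over a median of 104.8 to 207.7 CPM (chimera plate 3), with embryo 2 at 206.6 CPM, whereas no E8.5 plate exceeded 18.99 CPM and the lowest, plate 3, held 1.61 CPM. *Phlda3* was at 3.84 to 9.69 CPM on lane plates 1 to 4, at 10.4 to 30.6 CPM in the embryos and on chimera plate 3, at 59.7 and 50.5 CPM on lane plates 5 and 6, and at 9.36 to 88.1 CPM at E8.5.

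The stress genes came next. *Sesn2* lay between 20.1 and 59.9 CPM at E7.5 (median 40.4) and between 20.6 and 69.7 CPM at E8.5 (median 44.3). *Trp53inp1* ran from 12.7 to 58.7 CPM at E7.5 (median 30.7), and at E8.5 from 1.45 CPM on plate 5 to 22.8 CPM on plate 4 (median 13.5). *Zmat3* was at 9.78 to 45.7 CPM at E7.5 and at 2.69 to 28.99 CPM at E8.5. E8.5 plate 5 was the lowest E8.5 plate for *Ccng1*, *Trp53inp1*, *Phlda3* and *Zmat3*.

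**Figure D1:**
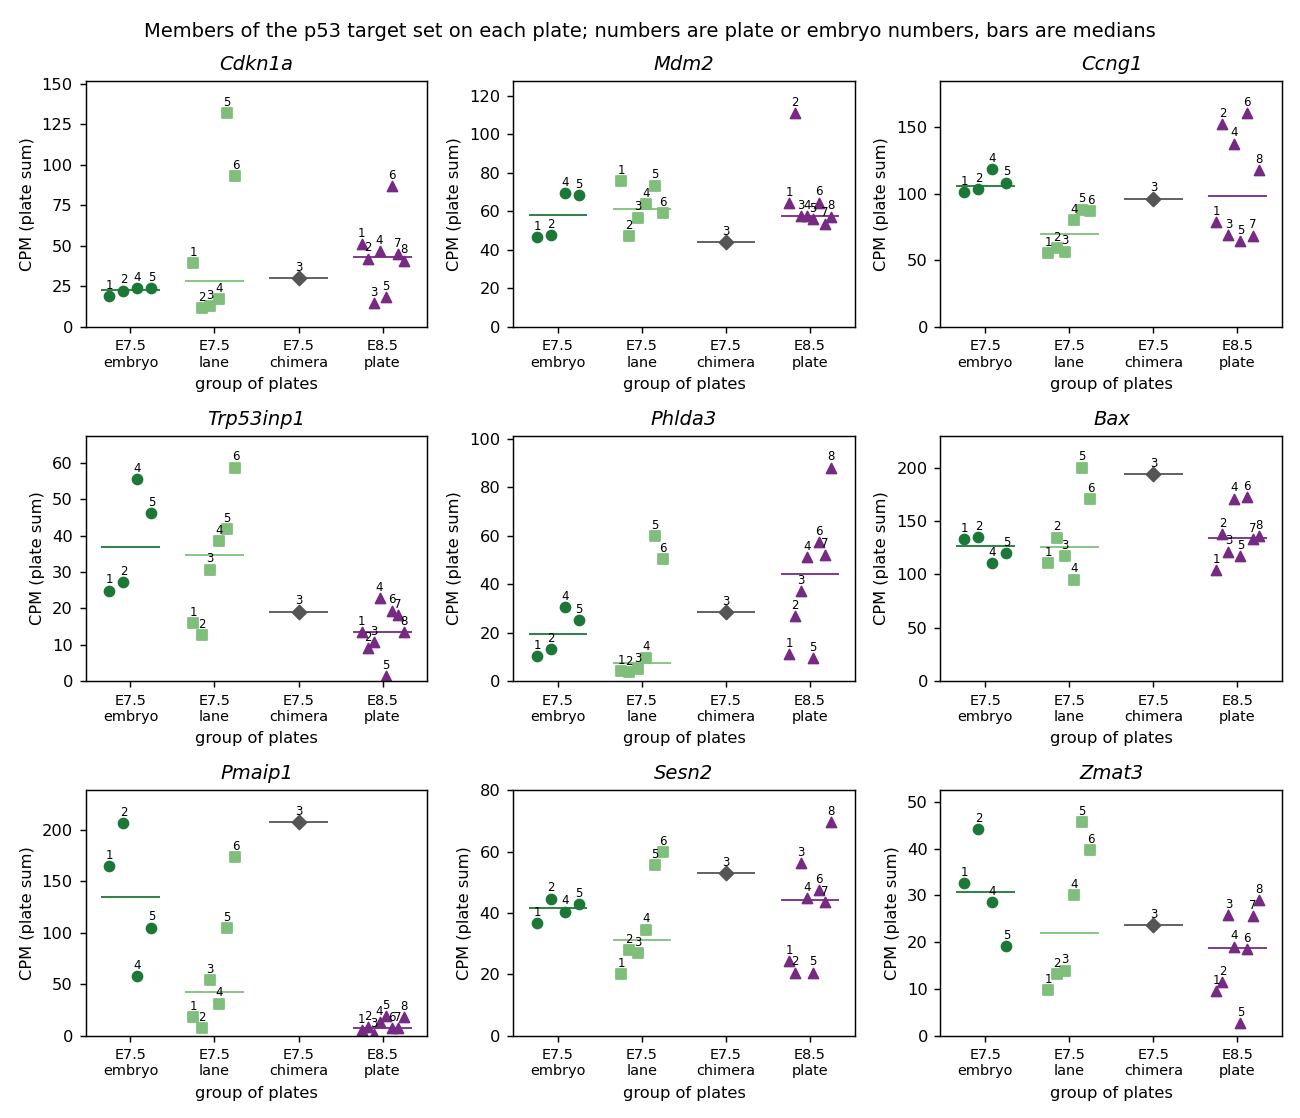
CPM of each member on each plate (y axis, 1 panel per gene, linear from 0), with the plates grouped on the x axis as numbered E7.5 embryos, E7.5 lane plates, the E7.5 chimera plate and E8.5 plates; the number beside a point is the plate or embryo number and the bar is the group median. Lane plates 5 and 6 lie above the other E7.5 plates for *Cdkn1a* and *Phlda3*, *Pmaip1* stays at or below 18.99 CPM on all E8.5 plates, and E8.5 plate 2 lies above all others for *Mdm2*.

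Lane plates 5 and 6 held the highest E7.5 values of *Cdkn1a*, *Phlda3* and *Sesn2*. Among the E7.5 plates *Zmat3* and *Bax* were also highest on lane plate 5, and *Trp53inp1* on lane plate 6. *Ccng1* (87.9 and 86.6 CPM), *Mdm2* (73.2 and 58.8 CPM) and *Pmaip1* (104.8 and 173.8 CPM) were not highest on either plate. A *Cdkn1a* read was found in 75.4% of the cells on lane plate 5 and 62.7% of those on lane plate 6, against 15.9% to 46.7% on the other E7.5 plates. The summed level of the 9 members was 800.7 and 791.7 CPM on these plates, against 316.9 to 696.1 CPM on the other E7.5 plates. Higher levels of *Cdkn1a* or *Phlda3* on lane plates 5 and 6 were also seen within single classes. In epiblast-like cells *Cdkn1a* stood at 203.8 CPM on lane plate 5 (18 cells) and 74.1 CPM on lane plate 6 (30 cells), and at 7.07 to 59.7 CPM on the 6 other plates with at least 5 such cells. In primitive streak-like cells the values were 237.9 and 192.9 CPM (5 and 15 cells) against 10.9 to 36.8 CPM. In extraembryonic ectoderm-like cells *Phlda3* stood at 173.6 and 185.7 CPM (5 cells each) against 41.5 and 42.5 CPM in embryos 4 and 5 (50 and 37 cells). The summed level of 9 early response genes (*Fos*, *Jun*, *Egr1* and others, which are induced by handling of cells) was 303.6 and 218.2 CPM on lane plates 5 and 6, within the range of 212.8 to 807.2 CPM over the other E7.5 plates. The part of the low depth of lane plate 5 in these values was not tested.

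Across classes, *Pmaip1* had the widest range of levels of the members. Its level was 267.8 CPM in primitive streak and nascent mesoderm-like cells, where all 8 plates with at least 5 cells lay between 201.3 and 402.5 CPM, and 175.7 CPM in epiblast-like cells (8 plates, 51.9 to 225.6). Paraxial mesoderm-like cells followed at 157.8 CPM. Haematoendothelial-like cells stood at 5.82 CPM at E7.5 and 5.63 CPM at E8.5, and megakaryocyte-like cells gave 1 read in 41 cells. The streak and epiblast-like classes were found at E7.5 alone and the megakaryocyte-like class on 1 E8.5 plate, so class cannot be told apart from stage for the former and from plate for the latter.

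Other members had other peaks. *Trp53inp1* was highest in E7.5 visceral and yolk sac endoderm-like cells, at 138.9 CPM (26 cells, 160.2 and 165.01 CPM on the 2 plates with at least 5 cells), and the next class, the E7.5 extraembryonic ectoderm-like cells, held 47.1 CPM. *Mdm2* was at 86.8 CPM in extraembryonic ectoderm-like cells and at 102.04 CPM in E8.5 blood progenitor-like cells, whose 2 plates differed widely (59.1 and 147.4 CPM). *Zmat3* stood at 52.5 CPM in epiblast-like cells and at 6.15 CPM in E7.5 endoderm-like cells. *Phlda3* was highest in E8.5 surface ectoderm and amnion-like cells, at 85.1 CPM.

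*Cdkn1a* was nearly absent from some classes. Pharyngeal and cardiac mesoderm-like cells held 2.63 CPM at E8.5, with 0.00 to 4.42 CPM on 4 plates, and gave 2 reads in 11 cells at E7.5. Megakaryocyte-like cells held 3.26 CPM. In the same megakaryocyte-like cells *Trp53inp1* gave 1 read, *Phlda3* stood at 1.05 CPM and *Zmat3* at 0.40 CPM, while *Bax* (109.3 CPM), *Mdm2* (58.1 CPM) and *Trp53* (155.1 CPM) were well expressed. *Bax* lay between 92.5 and 182.1 CPM in all class and stage groups of at least 10 cells, the narrowest range of the members.

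**Figure D2:**
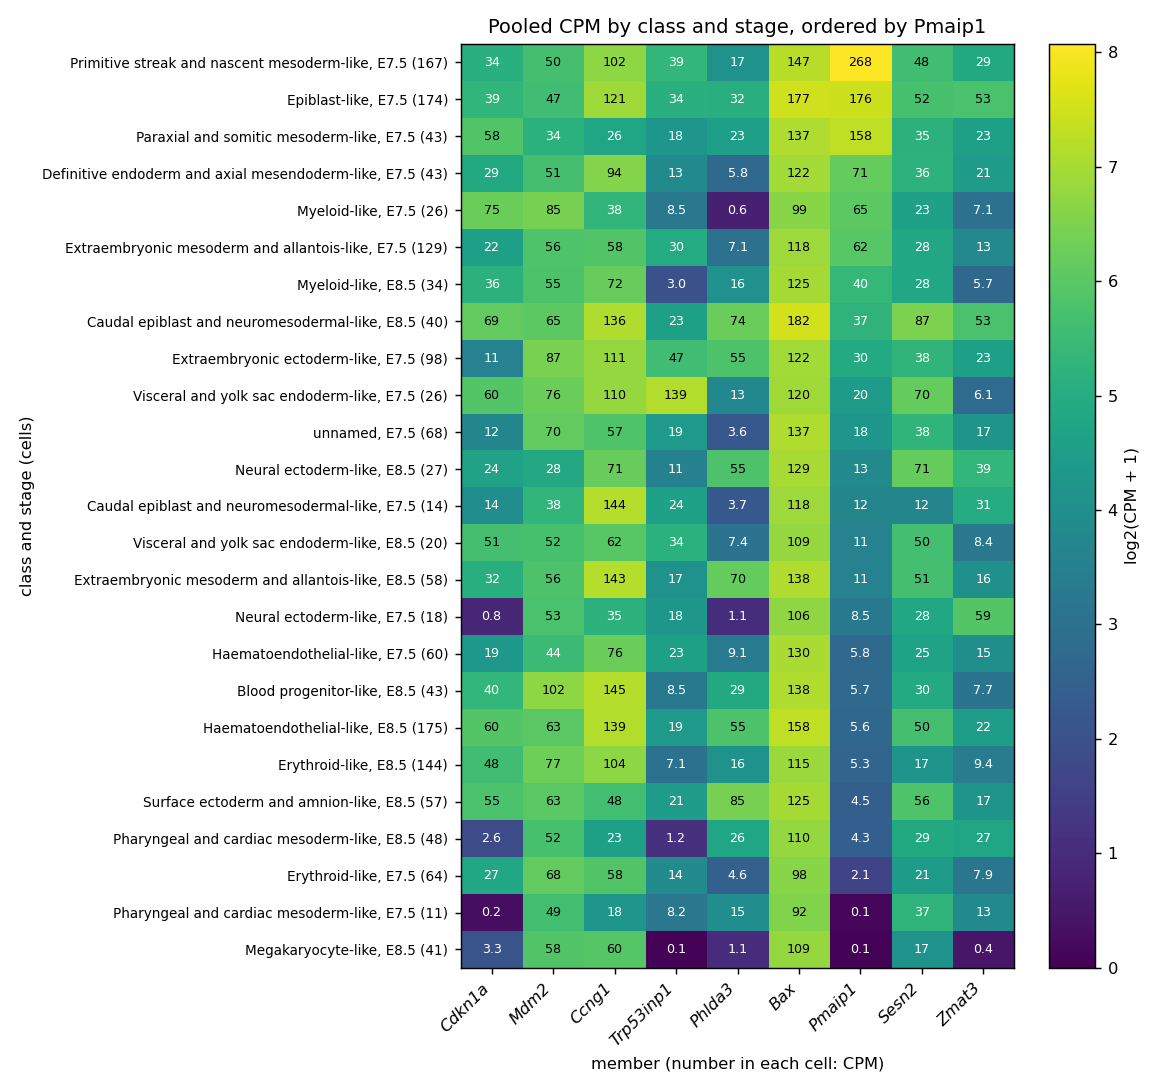
Pooled CPM of each member (columns) in each class and stage (rows, cell numbers in brackets, ordered by *Pmaip1*), with colour giving log2(CPM + 1) and the number in each field giving CPM. *Pmaip1* runs from 267.8 CPM in streak-like cells to 0.1 CPM in megakaryocyte-like cells, *Bax* is high in every row, and *Trp53inp1* peaks at 138.9 CPM in E7.5 endoderm-like cells.

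The numbered embryos allowed a test between classes with the animal as the replicate. Reads were summed per embryo and class, and 3 pairs of classes had at least 5 cells of both in all 4 embryos. In each pair the edgeR quasi-likelihood test with embryo as a block was fitted over all genes, and a gene was called at a Benjamini-Hochberg adjusted p of at most 0.01 and an absolute log2 fold change of at least 1. Reads summed over a class cannot separate fewer expressing cells from less RNA per cell.

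*Pmaip1* had the largest fold changes of the members in both contrasts with extraembryonic mesoderm-like cells. In epiblast-like cells its level was 169.7, 225.6, 189.1 and 189.8 CPM in embryos 1, 2, 4 and 5, from 31, 36, 7 and 7 cells. In streak-like cells it was 214.6, 291.1, 236.4 and 402.5 CPM, from 40, 36, 9 and 15 cells. In extraembryonic mesoderm and allantois-like cells it was 40.98, 16.4, 55.02 and 65.7 CPM, from 9, 12, 6 and 10 cells. Every extraembryonic mesoderm value lay below every value of the other classes, and within each embryo the streak value was the highest.

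The log2 fold change of *Pmaip1* in extraembryonic mesoderm-like over streak-like cells was -2.84 ± 0.33 (SE), with an edgeR adjusted p of 0.0112 (lower in 4 of 4 embryos). In epiblast-like over extraembryonic mesoderm-like cells it was 2.26 ± 0.38, adjusted p = 0.0184 by edgeR (higher in 4 of 4). Between epiblast-like and streak-like cells it was -0.56 ± 0.15, adjusted p = 0.0929 by edgeR (lower in 4 of 4). None of these passed the threshold of 0.01. With DESeq2 *Pmaip1* was called in both contrasts against extraembryonic mesoderm-like cells, as it was without the embryo block, where its log2 fold changes were -2.72 and 2.15. With any embryo left out it was called in none.

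In all 3 contrasts the edgeR test called 0 of 9 members. Over all genes it called 0.646% higher and 0.736% lower in epiblast-like than in streak-like cells, 0.274% higher and 0.0411% lower in extraembryonic mesoderm-like than in streak-like cells, and 0.653% higher and 1.27% lower in epiblast-like than in extraembryonic mesoderm-like cells. At an unadjusted p under 0.05 the counts were 4, 1 and 3 of 9 members, beside 18.5%, 13.8% and 22.3% of all genes, and DESeq2 called 0, 1 and 2 members, namely *Pmaip1* in both contrasts with extraembryonic mesoderm-like cells and *Ccng1* in the last. *Ccng1*, *Bax* and *Zmat3* were each higher in epiblast-like than in streak-like cells in 4 of 4 embryos. Their means were 169.7 ± 58.99 against 104.8 ± 30.7 CPM, 155.3 ± 12.1 against 115.8 ± 9.18 CPM and 54.6 ± 16.1 against 31.3 ± 14.1 CPM (SD, n = 4), and their edgeR adjusted p were 0.257, 0.146 and 0.176. *Cdkn1a*, at 27 ± 22.97 and 24.4 ± 13.2 CPM, was higher in 2 embryos and lower in 2.

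**Figure D3:**
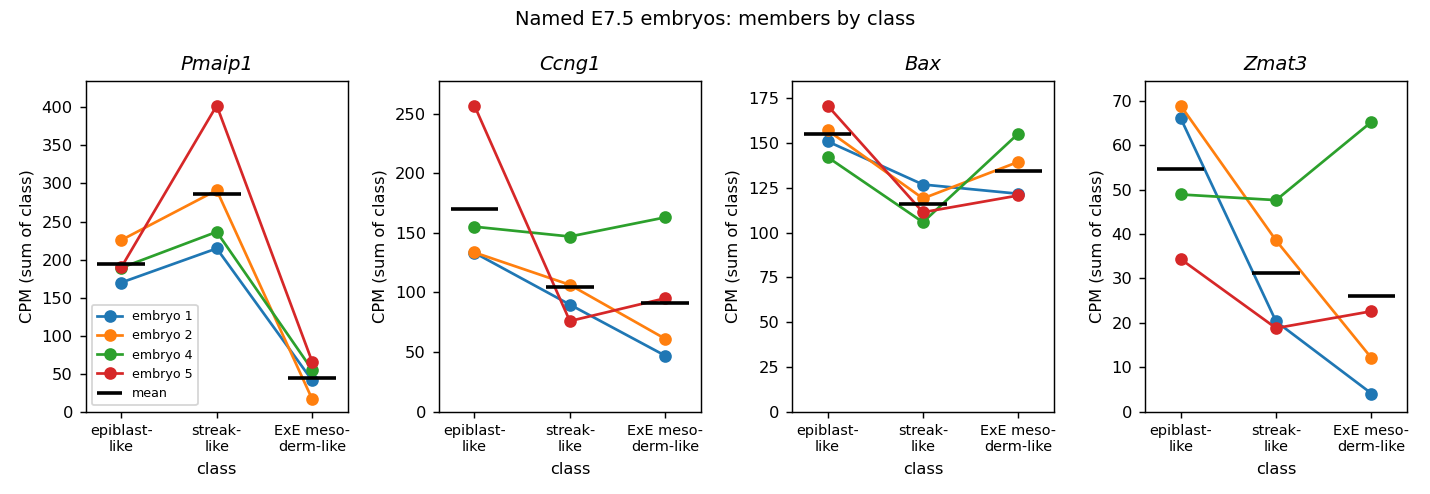
CPM of *Pmaip1*, *Ccng1*, *Bax* and *Zmat3* (y axis from 0, scale differs by panel) in epiblast-like, primitive streak and nascent mesoderm-like and extraembryonic mesoderm and allantois-like (ExE mesoderm) cells of embryos 1, 2, 4 and 5; lines join values of 1 embryo and black bars are means. *Pmaip1* lies between 16.4 and 65.7 CPM in ExE mesoderm-like cells and at or above 169.7 CPM in both other classes. *Ccng1*, *Bax* and *Zmat3* are each higher in epiblast-like than in ExE mesoderm-like cells in 3 of 4 embryos and lower in 1.

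Between stages, 3 of 9 members differed by 2-fold or more in pooled CPM. *Phlda3* was higher at E8.5, at 41.04 against 15.9 CPM (log2 ratio 1.32 with 1 CPM added to both sides). *Pmaip1*, at 9.47 against 99.1 CPM (log2 -3.26), and *Trp53inp1*, at 13.6 against 30.2 CPM (log2 -1.09), were lower. Of the 9886 genes with at least 10 CPM at either stage, 6.99% were 2-fold higher and 8.23% 2-fold lower at E8.5, and the median log2 ratio was 0.08 against 0.15 for the members. *Cdkn1a* stood at 44.7 against 28.4 CPM (0.64), *Ccng1* at 103.9 against 81.4 CPM (0.35), *Mdm2* at 65.2 against 57.8 CPM (0.17), *Sesn2* at 40.9 against 36.7 CPM (0.15), *Bax* at 0.01 on the log2 scale and *Zmat3* at 17.7 against 23.8 CPM (-0.41). For 0 of 9 members did all plates of a stage lie above all plates of the other, which over all genes held for 0.384% with E8.5 above and 1.41% with E8.5 below. *Trp53inp1* left the 2-fold range when E8.5 plate 5 was left out (log2 -0.98), without embryo 4 (-0.999) and without lane plates 5 and 6 (-0.996).

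The stages held different classes, so they were also set side by side within haematoendothelial-like cells, the largest class present at both. E7.5 gave 58 cells on 3 plates, of which 46, 7 and 5 were on lane plates 2, 1 and 3. E8.5 plates 3, 4 and 6 gave 69, 45 and 60 cells. In this class *Pmaip1* stood at 5.997 against 5.65 CPM (log2 -0.07) and *Trp53inp1* at 23.6 against 19.2 CPM (-0.29), and neither reached 2-fold. *Phlda3* had 9.05 CPM at E7.5 (plates 5.21 to 17.6), against 55.3 CPM (45.9 to 64.9) at the later stage (log2 2.49). *Sesn2* stood at 23.3 CPM (13.7 to 29.7) against 50.3 CPM (45.98 to 53.4), and *Zmat3* at 14.4 CPM (7.27 to 16.1) against 22.3 CPM (19.8 to 23.3). For these 3 of the 8 members with at least 10 CPM in this class all E8.5 plates lay above all E7.5 plates, which held for 16.6% of all genes in the same cells, and for 0 members they lay below (7.99%). *Cdkn1a*, at 15.7 against 59.8 CPM (log2 1.87), overlapped, with 6.94 to 43.8 CPM at E7.5 and 18.3 to 100.7 CPM at E8.5. Counted at 2-fold, 3 of the 8 (*Cdkn1a*, *Phlda3* and *Sesn2*) were higher at E8.5 beside 11.2% of all genes and 0 were lower (9.95%).

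The 8 E8.5 plates are numbered in sequence, and plates 1 and 2, 3 and 4, 5 and 6, and 7 and 8 were set side by side. Each comparison is 1 plate against 1 plate and has no replicate check. Plates 1 and 2 were mainly erythroid-like (73 and 68 cells), plates 3 and 4 mainly haematoendothelial-like (69 and 45 cells), and plates 7 and 8 held surface ectoderm, neural, caudal and cardiac-like cells. Plate 5 held megakaryocyte-like (41) and myeloid-like (33) cells, whereas plate 6 held haematoendothelial-like (60) and blood progenitor-like (21) cells, and these plates shared no class with at least 5 cells on both.

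*Ccng1* was higher on the even-numbered plate of every pair, at 152.1 against 78.3 CPM on plates 2 and 1, 137.4 against 69 on plates 4 and 3, 160.4 against 63.99 on plates 6 and 5, and 117.6 against 68.4 on plates 8 and 7 (log2 0.95, 0.98, 1.31 and 0.77). Its lowest even-numbered plate lay above its highest odd-numbered plate. *Phlda3* was likewise higher on every even-numbered plate, at 26.7 against 11.1, 51.2 against 37.2, 57.2 against 9.36 and 88.1 against 52.2 CPM. *Bax* was higher too, at 137.9 against 104.3, 171.1 against 121.4, 172.4 against 117.4 and 135.97 against 133.2 CPM, though its last pair differed by 0.03 on the log2 scale. These were 3 of the 8 members with at least 10 CPM over the E8.5 plates. Over all 9291 such genes 10.4% were higher on the even-numbered plate in all 4 pairs and 5.04% on the odd-numbered plate.

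*Cdkn1a* did not share this direction. It was higher on plate 4 than on plate 3 (46.7 against 14.7 CPM, log2 1.60) and on plate 6 than on plate 5 (86.9 against 18.3 CPM, 2.18), but stood at 42 against 51.1 CPM on plates 2 and 1 and at 40.7 against 44.6 CPM on plates 8 and 7. A *Cdkn1a* read was found in 23 cells on each of plates 3 and 4, and in 17 and 41 cells on plates 5 and 6. On plates 3 and 4 the 5 highest cells held 86.3% and 75.1% of its reads. *Mdm2* was at 110.9 against 64.3 CPM on plates 2 and 1 and differed by at most 0.21 on the log2 scale in the other pairs.

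Counted at 2-fold, 1 of 8 members past the minimum was higher on plate 2 (*Phlda3*, beside 9.96% of all genes) and none on plate 1 (9.42%). On plate 4, 3 of 9 members were higher (*Cdkn1a*, *Trp53inp1* and *Pmaip1*, beside 5.35%) and none on plate 3 (6.46%). On plate 6, 6 of 9 were higher (*Cdkn1a*, *Ccng1*, *Trp53inp1*, *Phlda3*, *Sesn2* and *Zmat3*, beside 13%) and 1 lower (*Pmaip1*, beside 6.17%). On plate 8, *Pmaip1* was higher (18.4 against 7.64 CPM, beside 5.7%) and no member lower (6.46%). *Pmaip1* reads came from few cells, 3 on plate 3, 14 on plate 4 and 10 on each of plates 7 and 8. On plates 7 and 8 the 5 highest cells held 87.1% and 91.2% of them. The median log2 ratio over all genes was 0.24 for plates 2 over 1 and within 0.04 of 0 for the others, and that of the members was 0.32, 0.49, 1.31 and 0.18. In at least 2 of the 4 pairs *Cdkn1a*, *Trp53inp1* and *Phlda3*, 3 of the 8 members past the minimum over E8.5, were 2-fold higher on the even-numbered plate, beside 6.32% of all genes. The pair with most member differences, plates 5 and 6, is the pair without a shared class.

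**Figure D4:**
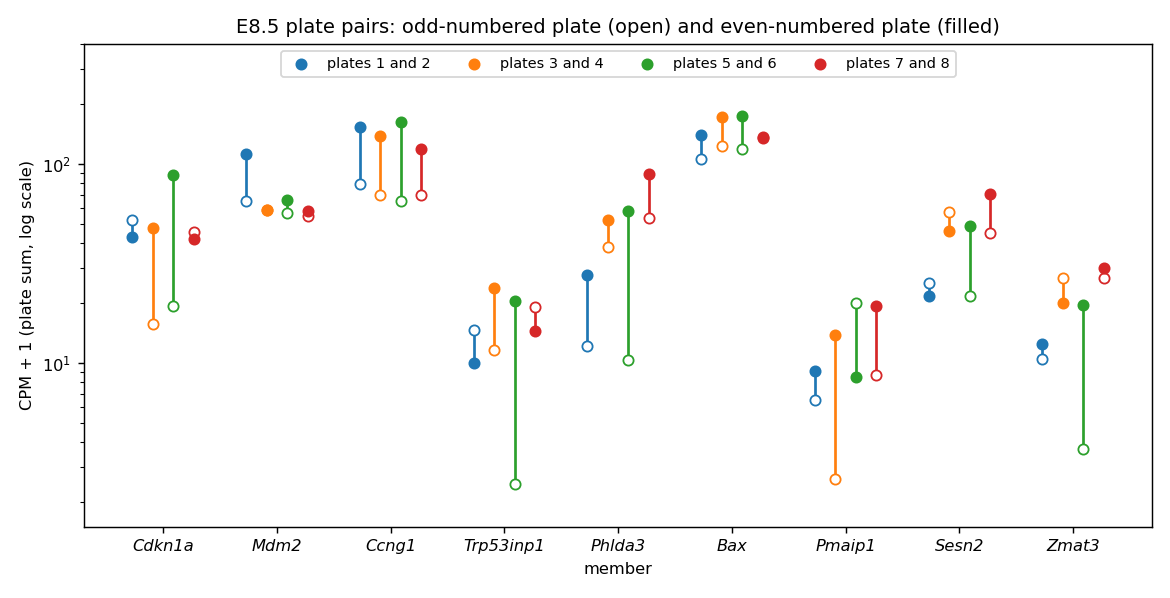
CPM + 1 of each member on the E8.5 plates (log scale), with open circles for the odd-numbered and filled circles for the even-numbered plate of each pair, joined by a line and coloured by pair. Filled circles lie above open ones in all 4 pairs for *Ccng1*, *Phlda3* and *Bax*, and the longest lines for *Cdkn1a*, *Trp53inp1*, *Phlda3* and *Zmat3* are those of plates 5 and 6.

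Within the largest class shared by a pair, *Ccng1* and *Phlda3* kept their direction in the 3 pairs that had one. *Zmat3* also held 1 direction there, but was lower on the even-numbered plate, at 8.74 against 10.01 CPM in erythroid-like cells. The share of all genes with 1 direction within these classes was not taken. In erythroid-like cells *Ccng1* stood at 84.2 CPM on plate 1 and 140.03 CPM on plate 2, in haematoendothelial-like cells at 84.3 on plate 3 and 180.5 on plate 4, and in surface ectoderm and amnion-like cells at 28.2 on plate 7 (30 cells) and 69.5 on plate 8 (25 cells). *Phlda3* stood at 12.5 and 22.6 CPM, 45.9 and 56.1 CPM, and 61.1 and 120.2 CPM in the same cells. *Bax* was higher on plates 2 and 4 (141.1 against 102.4 and 184.3 against 118.3 CPM) and lower on plate 8 than on plate 7 (105.9 against 144.3 CPM). *Cdkn1a* stood at 18.3 and 65.3 CPM in the haematoendothelial-like cells of plates 3 and 4. *Pmaip1* turned in the surface ectoderm-like cells, to 3.94 CPM on plate 8 and 5.25 CPM on plate 7. Of the members with at least 10 CPM in the class, 0 of 7 differed by 2-fold in erythroid-like cells, where 10.7% of all genes were 2-fold higher on plate 2 and 3.22% on plate 1. In haematoendothelial-like cells 3 of 8 were 2-fold higher on plate 4 (*Cdkn1a*, *Ccng1* and *Trp53inp1*, beside 5.55%) and none on plate 3 (7.74%). In surface ectoderm and amnion-like cells 2 of 8 were 2-fold higher on plate 8 (*Ccng1* and *Sesn2*, the latter at 79.8 against 34.6 CPM, beside 9.97%) and none on plate 7 (12.2%).

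The summed level of the early response genes was lower on the even-numbered plate in 3 pairs (459.4 against 779.2, 523.997 against 753.4 and 946.9 against 1439 CPM) and 425.6 against 331.5 CPM on plates 8 and 7. That of 5 ATF4 response genes (*Asns*, *Chac1*, *Ddit4*, *Psat1* and *Trib3*, induced when amino acids are short, with *Sesn2* left out as a member and *Ddit3* for want of a unique row) was 1261 against 1200, 487.8 against 448.1, 765.3 against 705.6 and 343.04 against 585.4 CPM. The part of these states, and of genotype and sort gate, in the plate differences was not tested.

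Within plates the members varied together weakly. Spearman correlations of CPM over the cells of a plate were taken for the 36 pairs of members, and the median over plates was above 0 for 36 of 36 pairs, from 0.01 for *Mdm2* and *Pmaip1* to 0.34 for *Ccng1* and *Phlda3*. The median over all pairs was 0.15 (SD over plates 0.07). Pairs of other genes were not taken, so the count of pairs above 0 has no background beside it. These correlations are over cells that share a plate and amplification, and in sparse counts values this low are a description without a test. *Ccng1* and *Phlda3* were correlated above 0 on 19 of 19 plates (0.05 to 0.55). Next were *Trp53inp1* with *Phlda3* (0.29), *Cdkn1a* with *Trp53inp1* (0.27), and *Ccng1* with *Trp53inp1* and with *Zmat3* (0.26 each). The lowest values were those of pairs with *Mdm2*, *Bax* or *Pmaip1*.

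The plates differed in how far the members moved together. The median over the 36 pairs was highest on E8.5 plate 2 (0.34), plate 6 (0.26) and plate 1 (0.25), where 36 of 36 pairs were above 0. It was lowest on lane plate 2 (0.01, 21 pairs above 0) and E8.5 plate 3 (0.06, 23 pairs). Within single classes on single plates, in 29 groups of at least 20 cells, the median was 0.13 (from -0.01 to 0.49) and 27 groups lay above 0, so that the positive values were found also where class and plate were held fixed. *Ccng1* and *Phlda3* reached a median of 0.36 over these groups (from -0.12 to 0.80). Here too no pairs of other genes were taken for comparison.

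**Figure D5:**
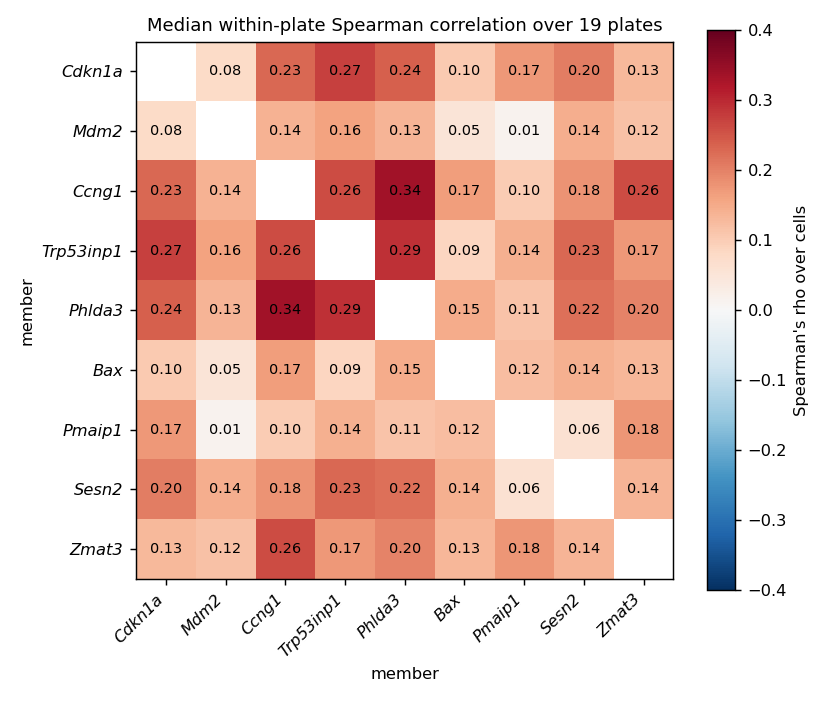
Spearman's rho over cells for each pair of members, as the median over 19 plates (both axes list the members, colour and number give rho). All fields are above 0, the highest being 0.34 for *Ccng1* and *Phlda3*, and the rows of *Mdm2* and *Bax* do not exceed 0.17.

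Cells were also split by whether a *Cdkn1a* read remained after thinning, which it did in 34.8% of E7.5 and 24.2% of E8.5 cells. *Sesn2* was higher in the cells with a *Cdkn1a* read on 19 of 19 plates, at 50.6 against 30.5 CPM at E7.5 and 82.2 against 27.5 CPM at E8.5. *Ccng1* stood at 119.1 against 64.3 CPM and 222.02 against 65.6 CPM (higher on 17 plates), *Phlda3* at 28.1 against 10.3 CPM and 84.5 against 26.9 CPM (18 plates), and *Trp53inp1* at 47.4 against 22.4 CPM and 37.1 against 6.01 CPM (16 plates). *Zmat3* stood at 30.8 against 20.7 CPM and 37.1 against 11.4 CPM (17 plates), and *Mdm2* at 64.6 against 54.7 CPM and 97.9 against 54.6 CPM (16 plates). *Pmaip1*, at 115.7 against 91.6 CPM and 18.1 against 6.67 CPM, and *Bax*, at 144.8 against 126.8 CPM and 167.5 against 122.05 CPM, were each higher on 15 plates. The median log2 difference over plates was 0.15 for *Bax* and for *Trp53*, 0.29 for *Pmaip1*, 0.32 for *Mdm2* and 0.80 to 1.61 for the other members. *Trp53* stood at 246.7 against 205.95 and 280.8 against 228.4 CPM (15 plates). *Mki67*, a marker of cycling cells, was at 242.2 against 270.4 and 275.8 against 333.3 CPM, and higher on 6 plates. The share of all genes that were higher in cells with a *Cdkn1a* read was not taken, so these plate counts have no background.

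Measures of depth and state were set beside the members within plates. The mean of the members on the log2(CPM + 1) scale had a median within-plate correlation of 0.01 with total reads, -0.02 with the mitochondrial share and 0.06 with a list of 8 proliferation genes. Its correlation with the number of genes detected was 0.22 and above 0 on 19 of 19 plates, and the part of that number in the co-variation was not tested.

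p53 and its regulators were followed in the same way. *Trp53* ran from 143.2 to 324.1 CPM on E7.5 plates (median 215.98) and from 111.9 to 323.3 CPM at E8.5 (median 263.2). Of 11 genes in the list (*Trp53*, its inhibitor *Mdm4*, the damage kinases *Atm*, *Atr*, *Chek1* and *Chek2*, the phosphatase gene *Ppm1d*, *Usp7*, *Cdkn2a*, *Trp63* and *Trp73*), 8 passed the minimum between stages. Of these, 0 reached 2-fold in either direction, beside 6.99% of all genes higher and 8.23% lower at E8.5. Their median log2 ratio was -0.47. *Atm* came nearest, at 39.6 against 77.6 CPM (log2 -0.95). *Trp53* and *Usp7* were higher on the even-numbered plate in all 4 pairs. They were 2 of the 8 regulators past the minimum over E8.5, beside 10.4% of all genes. For *Trp53* the difference reached 2-fold on plates 2 and 1 alone (245.5 against 111.9 CPM, 1.13). Its log2 ratio was 0.02 for plates 4 over 3 and 0.05 for plates 8 over 7. Of the regulators past the minimum, *Atm* was 2-fold lower on plate 4 than on plate 3 (log2 -1.45) and *Atr* on plate 8 than on plate 7 (-1.03). Between classes of the embryos, edgeR called 0 of the 11, 10 and 9 regulators tested, beside 1.38%, 0.315% and 1.92% of all genes. *Trp53* changed by 0.34 (epiblast over streak-like), -0.20 (extraembryonic mesoderm over streak-like) and 0.53 (epiblast over extraembryonic mesoderm-like) on the log2 scale. The edgeR adjusted p were 0.109, 0.579 and 0.0471.

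Among 24 further p53 targets, 15 passed the minimum between stages, with a median log2 ratio of 0.28. Of these, 1 was 2-fold higher at E8.5 (*Plk2*, 100.55 against 44.2 CPM) and 0 lower, beside 6.99% and 8.23% of all genes. *Tnfrsf10b* was at the other end, at 7.01 against 13.5 CPM (-0.86). In the plate pairs, 14 passed the minimum over E8.5, and *Perp*, an effector of p53-dependent death, was higher on every even-numbered plate (35.6 against 14.3, 27.8 against 1.14, 159.8 against 23.6 and 83.1 against 42.1 CPM, log2 1.26, 3.75, 2.71 and 0.96), whereas *Ei24* was lower on every one. Over all genes these directions held for 10.4% and 5.04%. Within the shared class of a pair *Perp* stood at 12.02 against 8.16 CPM in erythroid-like cells and 4.81 against 0.77 CPM in haematoendothelial-like cells, and at 80.03 against 98.2 CPM in the surface ectoderm and amnion-like cells of plates 8 and 7, where its direction turned. At 2-fold, 3 of 18 targets past the minimum were higher and 2 lower on plate 2 than on plate 1, 1 of 18 higher and 0 lower on plate 4 than on plate 3, 6 of 17 higher and 0 lower on plate 6 than on plate 5, the pair without a shared class, and 1 of 17 higher and 0 lower on plate 8 than on plate 7, beside the shares of all genes given for the members. In the embryos 0 of 22, 22 and 21 targets tested were called by edgeR, beside the shares of all genes given for the regulators.

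The further targets found in at least 20% of cells differed in how far they varied with the members from cell to cell. Their median within-plate correlation with the mean of the 9 members was highest for *Tnfrsf10b* (0.28) and *Aen* (0.23). It was lowest for *Xpc* (0.04) and *Tigar* (0.05), beside a median of 0.04 over all 11456 genes found in at least 20% of cells. *Trp53* stood at 0.14. Outside the lists the genes whose pattern was most like that of the members were *Cpt1c* (0.32, above 0 on 19 of 19 plates), *Bst2* (0.29), *Slc19a2* (0.28, 19 plates), *Dnmt3b* (0.27), *Psrc1* (0.26), *St14* (0.26), *F11r* (0.25) and *Ap1m2* (0.25). *Dnmt3b* encodes a de novo DNA methyltransferase expressed in epiblast, and *F11r* a tight junction protein. For *Cdkn1a* alone the most alike genes were *Trp53inp1* (0.27), *T* (0.25), *Phlda3* (0.24), *Ccng1* (0.23) and *Fgf8* (0.23). *T* and *Fgf8* mark the primitive streak, and their correlations were above 0 on 15 and 16 of 19 plates.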

How the data were processed

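Libraries of single cells were made with Smart-seq2, which covers whole transcripts and carries no molecular identifiers. The values that the authors deposited are unnormalised counts of reads in exons, made with HISAT2 2.1.0 on GRCm38 and featureCounts on the Ensembl v87 annotation. Strand and multi-mapping settings are not given in the sources used here. Each of the 1824 columns matched 1 cell, and 0 columns were left without a sample.

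Cells with at least 100000 reads, at most 10% mitochondrial and at most 20% ribosomal protein reads were kept. Counts were summed per plate, stage or class and divided by all reads (CPM). Log2 ratios had 1 CPM added to both sides, for genes with at least 10 CPM in either group (over E8.5 for directions in all 4 plate pairs). Exact Poisson and Clopper-Pearson intervals cover counting error only. Clusters (scanpy 1.11.5, Leiden resolution 1) were built without the members, the regulators and the further targets. Of named classes, values by plate needed at least 5 cells. No doublet caller was run, and the methods of the study describe sorting of singlets.

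Class contrasts in the 4 numbered embryos used edgeR 4.0.16, with DESeq2 1.42.0 as an alternative. SEs were derived from the F statistic. The planned minimum of 10 cells per class and embryo was met by 0 pairs of classes, so 5 cells were used, a choice made after seeing the data. The embryo is the block because both classes come from the same animal, and deviations of the classes from their means correlated between 0.0241 and 0.126 over genes. In simulated counts for the epiblast and streak contrast, on 15829 genes, 43.3% of genes changed by 2 and 59.0% of those changed by 3 on the log2 scale were called.

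Genes named were the 9 members, 11 regulators, 24 further targets (by counts, with at most the 2 highest and 2 lowest), the 8 genes outside these lists with the largest median within-plate correlation with the mean of the members, the 5 most like *Cdkn1a*, and lists for proliferation, early response and ATF4 response. The rule for the members uses names alone, but members and lists were chosen with earlier results of these data known. Alternatives covered quality limits, scaling, pooling, pseudocount, filters, clustering resolution and leaving out each plate or embryo. The label of each plate decided its group.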

Additional observations from a re-analysis of the deposited data

How the results depend on the processing

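The count of members past 2-fold between stages stayed at 2 or 3 when each plate was left out in turn, that of members whose plates did not overlap stayed at 0 (0 to 0), and the median within-plate correlation of member pairs ran from 0.144 to 0.160. Within haematoendothelial-like cells the plates of 3 members did not overlap between stages, beside 16.6% of all genes above and 7.99% below. For E8.5 plates 1 and 2 the count past 2-fold was 0 with DESeq2 size factors and 0 in erythroid-like cells, and for plates 7 and 8 it was 2 in surface ectoderm and amnion-like cells, where *Pmaip1* reversed to -0.34 on the log2 scale. Plates 5 and 6 gave no value within a shared class. Members with 1 direction in all 4 pairs numbered 2 to 4, with *Mdm2* added at a minimum of 4000 reads, without the deepest 2% of cells and with DESeq2 size factors, and *Phlda3* lost when single-cell CPM were averaged. In cells of the largest shared class, over the 3 pairs that had one, *Ccng1*, *Phlda3* and *Zmat3* held 1 direction.

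In the embryo contrasts, leaving out each embryo kept the count of members called at 0 (0 to 0) in all 3. Without the replicate block, which treats the classes as unpaired, it was 0 for epiblast over streak-like cells, 1 for extraembryonic mesoderm over streak-like cells and 1 for epiblast over extraembryonic mesoderm-like cells (*Pmaip1*), and the block changed no other member's call. With no filter on low counts the last 2 contrasts also gave 1 each, with DESeq2 1 and 2, and at clustering resolution 0.5 the second gave 1. Of all genes tested in the 3 contrasts in the same order, edgeR called 1.38%, 0.315% and 1.92%, DESeq2 6.86%, 3.55% and 10%, the fit without the block 2.85%, 1.02% and 4.57%, and the fit with no filter 1.63%, 0.493% and 1.79%. At clustering resolution 2 the last share was 0.918%. Leaving out an embryo gave 0.505% to 0.673%, 0.0363% to 0.152% and 0.55% to 0.833%. The cause of these shifts was not tested.

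Of the alternative values of main counts, 93.04% stayed and 11 moved. Of those of single genes, 97.4% stayed, 14 newly passed a threshold, 8 lost it and 1 reversed. E8.5 is 1 sample, so stage differences carry no test, and some class values in an embryo rest on 6 or 7 cells.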
